A study of Bos taurus with 14 samples.

Results

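The miR-181 family was examined as the 4 bovine miRNAs bta-miR-181a, bta-miR-181b, bta-miR-181c and bta-miR-181d, chosen by name from the 932 miRNA names (723 of them bovine) with a read in the small RNA libraries. Blood came from ruminally cannulated, non-lactating Holstein cows, each fed a forage diet without concentrate (FD) and afterwards, as sampled in week 1, a high-grain diet (HG) with 65% concentrate, which the study used to induce subacute ruminal acidosis. Small RNA was sequenced from cell-free plasma of cows 1 to 4 (8 libraries). Small RNA of buffy coat leucocytes was sequenced from cows 1, 3 and 4 (6 libraries). Both diets were thus sampled in the same animals, and diet followed time in each of them. The diet fits within a sample type and the ratios by diet used this pairing, whereas the interaction did not. Plasma libraries held 376589 to 4464702 reads assigned to miRNAs and leucocyte libraries 21764579 to 66070770. Buffy coat is a mixture of white cells, and in such bulk samples fewer cells of a type and less miRNA per cell cannot be told apart.

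MiRNAs of the miR-181 family share a seed, the short stretch at the 5′ end through which a miRNA pairs with its target transcripts, and they are encoded as neighbouring pairs of an a or c form with a b or d form. In lymphocytes miR-181a is known for tuning the strength of antigen receptor signalling, through repression of phosphatases that dampen it, and for its high level in developing T cells. The family is also expressed outside the blood, for example in brain and muscle, so that its presence in plasma does not name a source.

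In the genome used for the files (UMD3.1), bta-miR-181b was placed at chr11:95710641-95710664 on the plus strand, the position of its second precursor. The reads of bta-miR-181a were listed at its own second precursor, chr11:95709449-95709472 on the plus strand, in 8 libraries and at its first precursor, chr16:79685955-79685978 on the minus strand, in the other 6. These listings name a single place for reads that match both, so the precursors of bta-miR-181a could not be told apart. The mature starts of the chromosome 11 pair were 1192 bases apart. On chromosome 7, bta-miR-181c lay at chr7:12915090-12915113 and bta-miR-181d at chr7:12915272-12915294, both on the plus strand and 182 bases apart. In the RefSeq gene table of another assembly (ARS-UCD2.0), used for neighbours only, the chromosome 11 pair fell within the span of NR6A1, a nuclear receptor gene, and of the long non-coding RNA LOC100848407. That table also lists MIR181B-1 beside MIR181A-1 on chromosome 16, so reads of bta-miR-181b cannot be assigned to chromosome 11 alone either. The chromosome 7 pair fell within the span of NANOS3, a germ cell gene, with the miRNA genes MIR23A, MIR27A and MIR24-2 nearby. That table gives gene spans and not exons, so whether the precursors are exonic or intronic was not determined here.

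The files hold 2 counts for each name. Undivided reads count a read in full at every name it matches, whereas divided reads share it among those names, which include human homologues and repeated precursors. The members were divided unequally. Each divided read stood for 1 undivided read of bta-miR-181c and 2 of bta-miR-181d in every library with reads, against 2.95 to 3.002 of bta-miR-181a and 3.68 to 4.00 of bta-miR-181b. Levels of different members are therefore compared below in undivided reads per 1000000 assigned reads (RPM), and fitted differences between groups are given for divided reads of 1 member at a time. The mature miRNAs are 23 or 24 bases long, so their levels were not scaled for length.

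The family was a small share of all miRNA reads, and bta-miR-181a was most of it. Together the 4 members took 0.212% ± 0.0612 of assigned reads in plasma (SD, n = 8) and 0.218% ± 0.0619 in leucocytes (n = 6). Of these family reads, bta-miR-181a held 87.3% ± 3.81 in plasma and 90.2% ± 1.11 in leucocytes, and bta-miR-181b 11.9% ± 3.12 and 8.87% ± 1.03. The chromosome 7 members were rare, with bta-miR-181c at 0.427% ± 0.268 of family reads in plasma and 0.713% ± 0.174 in leucocytes. In divided reads the leucocyte share of bta-miR-181c was 2.12% ± 0.509, because its reads are not divided.

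The order bta-miR-181a over bta-miR-181b over bta-miR-181c held in 14 of 14 libraries. In leucocytes bta-miR-181a exceeded bta-miR-181b by 8.77 to 12.1 times, bta-miR-181b exceeded bta-miR-181c by 10.1 to 17.2 times and bta-miR-181c exceeded bta-miR-181d by 2.32 to 3.43 times. The steps in plasma were less even. There bta-miR-181a exceeded bta-miR-181b by 4.78 to 12.2 times and bta-miR-181b exceeded bta-miR-181c by 12.5 to 108.5 times. In plasma bta-miR-181c was above bta-miR-181d in 6 of 8 libraries, equal to it in 1 and below it in 1.

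The most abundant member, bta-miR-181a, stood at 1344, 2049 and 2628 RPM in FD leucocytes of cows 1, 3 and 4 and at 1455, 2668 and 1655 RPM on HG. In plasma of cows 1 to 4 it stood at 1853, 1559, 1208 and 1925 RPM on FD and at 2987, 2254, 1705 and 1389 RPM on HG. The groups overlapped throughout, and cow 1 was lowest of the leucocyte libraries on both diets but highest in HG plasma. By rank, bta-miR-181a was between the 46th and 62nd most read bovine name in leucocytes and between the 53rd and 79th in plasma.

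Its genomic neighbour, bta-miR-181b, which carries the same seed, was found at 134, 220 and 217 RPM in FD leucocytes and at 150, 225 and 189 RPM on HG. In plasma of cows 1 to 4 it was found at 151, 264, 197 and 226 RPM on FD and at 437, 215, 199 and 290 RPM on HG. Again the groups overlapped, and HG plasma of cow 1 was the highest library for both members.

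The chromosome 7 member bta-miR-181c stood at 12.8, 21.8 and 20.4 RPM in FD leucocytes of cows 1, 3 and 4 and at 11.1, 13.1 and 11.8 RPM on HG, from 324 to 1229 reads a library. Each leucocyte cow was lower on HG. In plasma of cows 1 to 4 it stood at 5.31, 6.30, 5.69 and 2.91 RPM on FD and at 4.03, 14.4, 15.99 and 12.9 RPM on HG, from only 2 to 44 reads a library. On FD every plasma library was below every leucocyte library, whereas on HG 1 of 4 was. The share of all names so separated was not counted. The counts in plasma were imprecise: the 2 reads of cow 1 on FD gave an exact (Clopper-Pearson) 95% interval of 0.643 to 19.2 RPM, which covers counting error only.

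The rarest member, bta-miR-181d, was found at 3.72, 6.40 and 8.50 RPM in FD leucocytes and at 4.07, 5.65 and 3.63 RPM on HG, from 100 to 361 reads. In plasma it had 2, 3, 3 and 0 reads on FD in cows 1 to 4 and 0, 3, 5 and 157 reads on HG. A count of 0 allowed up to 0.971 RPM in FD plasma of cow 4 and 0.672 RPM in HG plasma of cow 1. The 157 reads of cow 4 on HG, 46.2 RPM, came from 3 distinct sequences, and the other 7 plasma libraries had 5 reads or fewer.

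**Figure D1:**
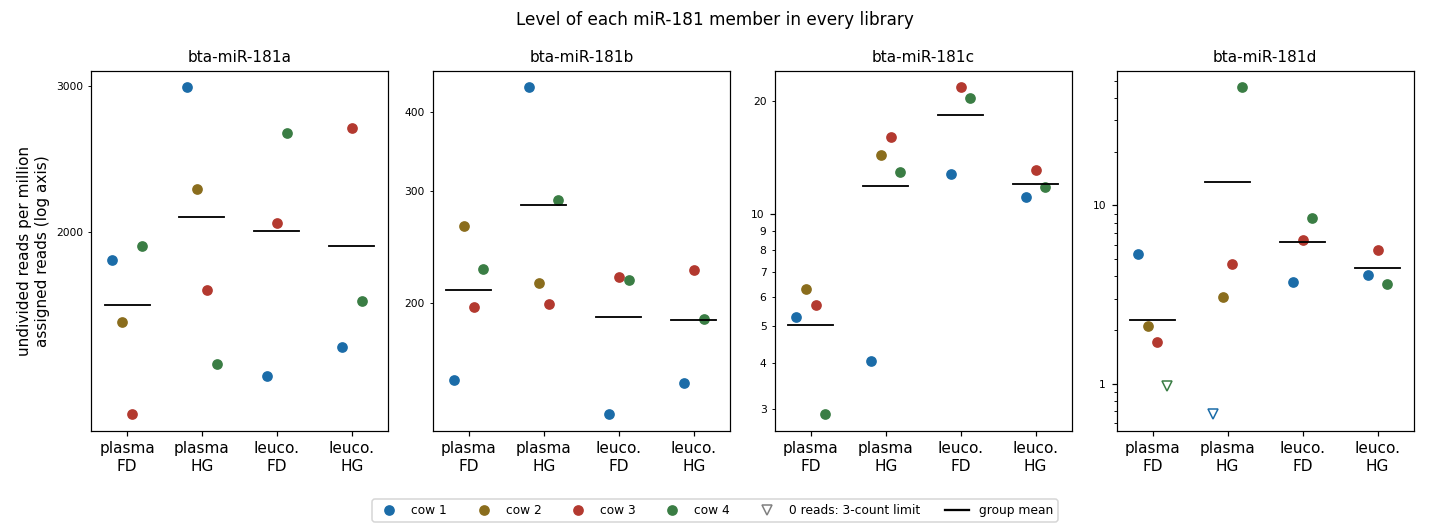
Undivided reads per 1000000 assigned reads (RPM, log axis, a different range in each panel) of each miR-181 member in the 14 libraries, grouped by sample type and diet and coloured by cow. Bars are group means and open triangles are libraries with 0 reads, drawn at the 3-count limit. The groups overlap for bta-miR-181a and bta-miR-181b, bta-miR-181c is lower in all 4 FD plasma libraries than in the FD leucocytes, and bta-miR-181d has 1 plasma library far above the rest.

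The first comparison asked which miRNAs differed between HG and FD in leucocytes. No member passed an adjusted p under 0.05 in edgeR's quasi-likelihood test with cow as a block, where 14 of 779 names tested (1.8%) did. The abundant pair was almost level, with a log2 fold change (HG over FD) of -0.07 ± 0.17 (SE, adjusted p = 0.934) for bta-miR-181a and of 0.00 ± 0.16 (adjusted p = 0.9996) for bta-miR-181b. The chromosome 7 pair lay below 0, bta-miR-181c at -0.58 ± 0.19 (adjusted p = 0.184) and bta-miR-181d at -0.40 ± 0.28 (adjusted p = 0.562). At an unadjusted p under 0.05, bta-miR-181c was the single member among 116 names (14.9% of those tested). After scaling by TMM (trimmed mean of M values), divided reads of bta-miR-181c were 16.7, 26.7 and 20.3 CPM (counts per 1000000) on FD in cows 1, 3 and 4 and 14.5, 15.7 and 11.97 on HG. The diets did not overlap and 3 of 3 cows were lower on HG, by the least in cow 1. How many of all names separated the diets in this way was not counted, so the separation describes bta-miR-181c alone. For bta-miR-181a, cows 1 and 3 were higher on HG and cow 4 was lower.

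With all cows bta-miR-181c was not called, and of the alternatives only the fit without cow 4 called it. There, with cows 1 and 3 only, its log2 fold change was -0.49, with an edgeR adjusted p of 0.029. That fit called 111 of 747 names, against 14 of 779 with all cows, while the fit without cow 3 called none. Calls thus changed over the whole table with the cow left out. Without the block for cow no name was called and bta-miR-181c stood at -0.60 (edgeR adjusted p = 0.727). DESeq2's Wald test, with 36 names called, gave it -0.58 with no adjusted p, since it fell under that tool's filter on mean count. With that filter at its default, a setting chosen after seeing the data, DESeq2 called 28 names and gave bta-miR-181c an adjusted p of 0.074.

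The same question was asked in plasma. No member and none of the 536 names tested (0%) passed an adjusted p under 0.05 in edgeR, while DESeq2 called 12 names, none of them a member. At an unadjusted p under 0.05 there were 46 names (8.58%), again without a member. The log2 fold changes, with wide errors, were -0.10 ± 0.57 (SE) for bta-miR-181a, -0.04 ± 0.93 for bta-miR-181b, 0.72 ± 0.99 for bta-miR-181c and 0.44 ± 2.49 for bta-miR-181d, with edgeR adjusted p-values of 0.947 or more. On the TMM scale bta-miR-181a went from 602 to 1502 CPM of divided reads in cow 1 but was lower on HG in cows 2 to 4, and bta-miR-181b split the cows in the same way, from 36.2 to 175 in cow 1. These directions depended on the scaling, since in unscaled RPM bta-miR-181a was higher on HG in cows 1, 2 and 3 and bta-miR-181b in cows 1, 3 and 4. Plasma of cow 1 on FD was the library with the fewest reads. TMM-scaled bta-miR-181c was 5.17, 9.77, 9.95 and 5.74 on FD and 6.08, 14.6, 14.3 and 16.3 on HG. It was higher in 4 of 4 cows, although the diets overlapped and unscaled RPM was higher in 3 of 4. How many of all names rose in every cow was not counted. Other measures of the plasma libraries moved with diet without overlap. Of all reads, 39.3% to 58.1% were assigned on FD and 59.3% to 72.0% on HG. The summed level of 6 leucocyte markers, none at 0, was 21331 to 27314 RPM on FD and 28154 to 31323 RPM on HG. Each marker alone overlapped between the diets, and the mean of bta-miR-142-3p was lower on HG (766 RPM, against 945 on FD). In the TMM-scaled fit the log2 fold changes of the 6 markers ran from -0.17 (bta-miR-142-5p) to 0.24 (bta-miR-155). The part of these measures in the values of the members was not tested.

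**Figure D2:**
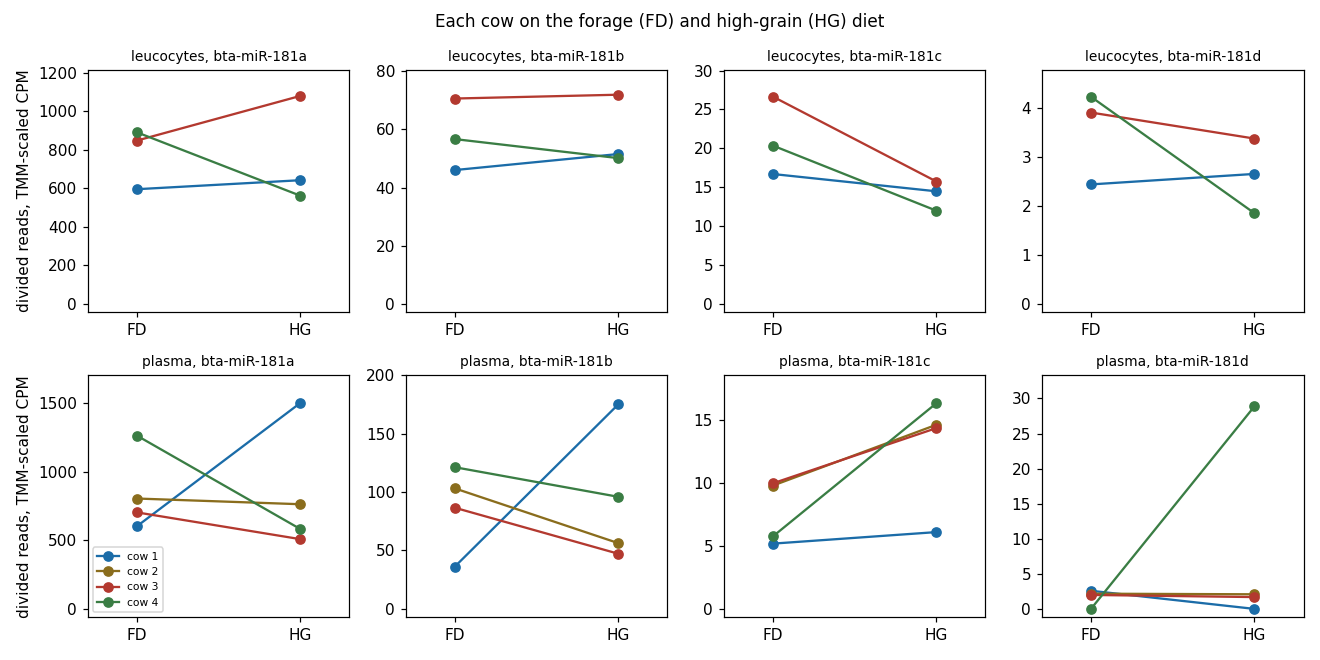
Divided reads in CPM after TMM scaling within each sample type (linear axes) of each member on FD and HG, with a line for each cow. All 3 leucocyte lines of bta-miR-181c run down and all 4 plasma lines run up. How many of all names run alike in every cow was not counted. In plasma bta-miR-181a and bta-miR-181b rise in cow 1 and fall in cows 2 to 4 on this scale, unlike in unscaled RPM, where each rises in 3 of 4 cows.

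Whether the effect of diet differed between leucocytes and plasma was tested as an interaction over the 14 libraries, from group means without pairing by cow. No member was called, as was none of the 797 names (0%) in edgeR, while DESeq2 called 13 names without a member. At an unadjusted p under 0.05 there were 89 names (11.2%), without a member. The diet effect in leucocytes minus that in plasma was -1.20 ± 0.87 (SE) on the log2 scale for bta-miR-181c, with an edgeR adjusted p of 0.675. The opposite directions of its cows thus did not exceed the spread of this unpaired fit, which includes differences between cows. With a block for cow, edgeR called no name either. For bta-miR-181d the same difference was -2.72 ± 1.94 (edgeR adjusted p = 0.668), and -0.09 once HG plasma of cow 4 was left out. The values for bta-miR-181a and bta-miR-181b were 0.06 ± 0.58 and -0.01 ± 0.79 (edgeR adjusted p = 0.9998 for both).

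Leucocytes were next compared with plasma on each diet, in an edgeR fit of group means over all 14 libraries. On FD, bta-miR-181c was higher in leucocytes, by 2.30 ± 0.62 (SE) on the log2 scale with an adjusted p of 0.010. It was the single member among 346 names called of 797 (43.4%), so a call was common in this comparison. The other members were at 0.76 ± 0.40 for bta-miR-181a (edgeR adjusted p = 0.146), 0.29 ± 0.55 for bta-miR-181b (0.679) and 2.01 ± 1.44 for bta-miR-181d (0.281), beside a median of 1.40 over all names tested. That median was -0.06 in the fit of the 257 names with at least 10 reads in every library, where bta-miR-181a was called. The call on bta-miR-181c was lost without cow 3 (2.19, edgeR adjusted p = 0.097) and with scaling by library size only (1.71, edgeR adjusted p = 0.071).

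On HG no member was called, against 307 of the 797 names (38.5%). The log2 differences were 0.81 ± 0.40 (SE) for bta-miR-181a, 0.27 ± 0.55 for bta-miR-181b, 1.09 ± 0.60 for bta-miR-181c and -0.71 ± 1.28 for bta-miR-181d, with edgeR adjusted p-values of 0.124, 0.693, 0.159 and 0.661. These differences depended on the scaling. With library size only, the median of all names moved by -1.06 on HG and by -0.58 on FD, and the HG values of bta-miR-181a, bta-miR-181b and bta-miR-181c turned negative, to -0.29, -0.80 and -0.13. With DESeq2 size factors bta-miR-181a was called on both diets, at 1.09 on FD and 1.16 on HG (edgeR adjusted p = 0.027 and 0.020). The erythrocyte markers bta-miR-451, bta-miR-144 and bta-miR-486 together took 297965 to 426164 RPM in leucocyte libraries and 56603 to 185296 RPM in plasma, none being at 0, and their part in these differences was not tested. The summed level of 6 leucocyte markers was 29885 to 47995 RPM in leucocytes and 21331 to 31323 RPM in plasma. That of bta-miR-122, a liver miRNA, was 16.7 to 75.7 RPM in leucocytes and 5170 to 61652 RPM in plasma. Not every marker followed its sum. Mean RPM was higher in plasma for bta-miR-223 (5851 against 5120 on FD, 8860 against 5757 on HG) and bta-miR-155 (537 against 477, 558 against 393). The other leucocyte markers had higher means in leucocytes on both diets. On FD, but not on HG, mean bta-miR-486 was higher in plasma (49132 against 44761).

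**Figure D3:**
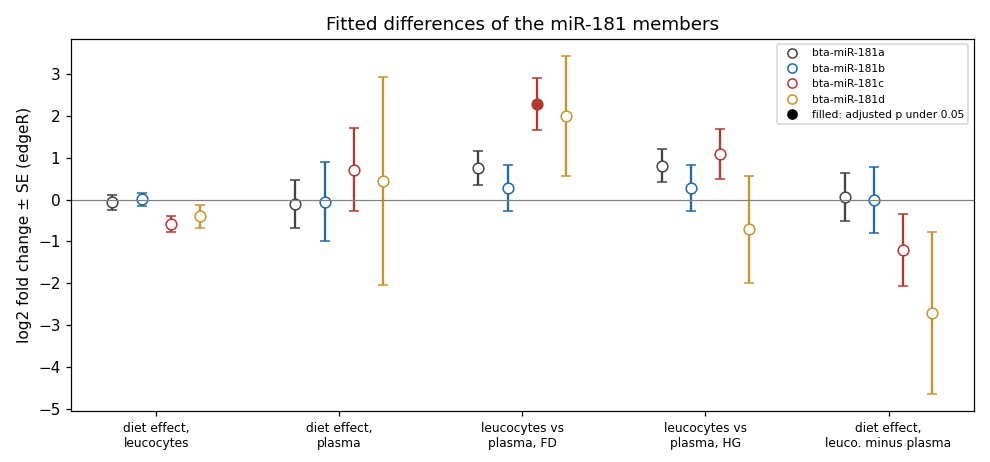
Log2 fold change with its standard error from edgeR for each member in the 5 comparisons, diet effects being HG over FD. The filled point, bta-miR-181c in leucocytes against plasma on FD at 2.30, is the single one with an adjusted p under 0.05, and bta-miR-181d has the widest error in each comparison that includes plasma.

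Ratios between members of the same library do not depend on its scaling. In divided reads, the log2 ratio of bta-miR-181c to bta-miR-181a averaged -5.20 in FD leucocytes and -5.71 on HG, a difference of -0.51 ± 0.53 (SD, n = 3), lower in 3 of 3 cows. With 3 cows an exact permutation test that flips signs, two-sided, can go no lower than p = 0.25, the value found here (adjusted over 5 ratios, 0.833). In plasma the same ratio differed by 0.80 ± 1.52 (n = 4), higher on HG in 3 of 4 cows (exact permutation p = 0.50, adjusted 0.833, where 0.125 is the smallest possible). The ratio of bta-miR-181b to bta-miR-181a differed between diets by 0.07 ± 0.41 in leucocytes and 0.12 ± 0.86 in plasma, within the spread of the cows.

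Between sample types, averaged over the diets in cows 1, 3 and 4, bta-miR-181c relative to bta-miR-181a was higher in leucocytes by 1.054 ± 0.998 on the log2 scale, in 3 of 3 cows. Relative to bta-miR-181a, bta-miR-181b was lower in leucocytes, with a difference of -0.45 ± 0.32, in 3 of 3 cows. Both had an exact permutation p of 0.25, the smallest possible, and 0.25 after adjustment, so neither could reach the threshold.

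**Figure D4:**
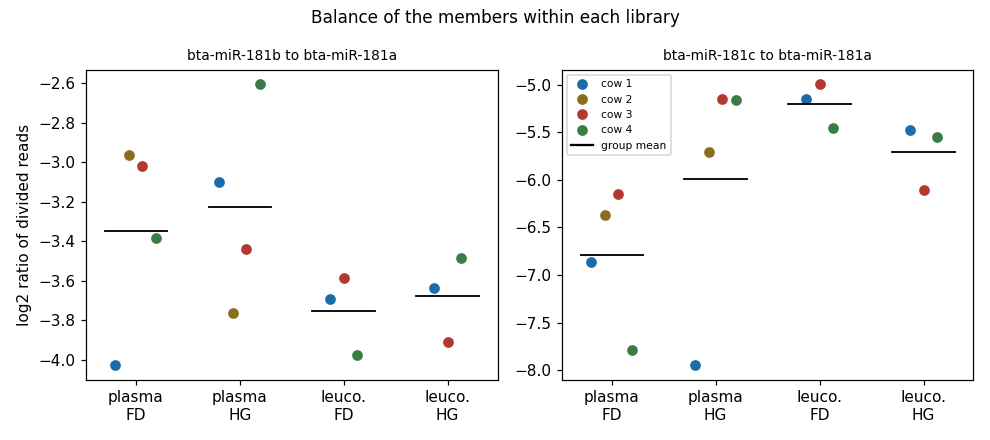
Log2 ratio of divided reads of bta-miR-181b (left) and bta-miR-181c (right) to bta-miR-181a in each library, coloured by cow, with bars for group means. The plasma ratios of bta-miR-181c spread from -7.95 to -5.15, whereas the leucocyte ratios lie between -6.10 and -4.99.

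Over the 14 libraries together, members of the same neighbouring pair (a with b, c with d) had the more similar profiles. The mean of each sample type was first subtracted from the log2 level, and the libraries still share differences of depth and cow. Across the 14 libraries Pearson's r was then 0.64 between bta-miR-181a and bta-miR-181b and 0.67 between bta-miR-181c and bta-miR-181d, against -0.27 to -0.03 between pairs. In the 6 leucocyte libraries alone all members went together, with r of 0.61 to 0.92. There bta-miR-181d was as close to bta-miR-181a (0.86) as to bta-miR-181c (0.86). In plasma, and so also over the 14 libraries, every r of bta-miR-181d leans on 1 library. HG plasma of cow 4 had 157 reads of it and the other plasma libraries 5 or fewer. Of 183 bovine names compared, those most like bta-miR-181a were bta-miR-30c (r = 0.64), bta-miR-26b (0.62) and bta-let-7f (0.60). Most like bta-miR-181b were bta-miR-222 (0.75), bta-miR-223 (0.72) and bta-miR-342 (0.72). Within the sample types, r for the names most like bta-miR-181a was 0.76 to 0.84 over the 8 plasma libraries but -0.16 (bta-let-7f) to 0.49 (bta-miR-26b) over the 6 leucocyte libraries, and for those most like bta-miR-181b it was 0.75 to 0.88 and 0.38 to 0.83. For bta-miR-181c they were bta-miR-363 (0.76), bta-miR-195 (0.71) and bta-miR-34a (0.71), and for bta-miR-181d bta-miR-130a (0.85), bta-miR-30f (0.71) and bta-miR-30e-5p (0.56). Within the sample types these ranged from 0.69 to 0.79 in plasma and 0.48 to 0.86 in leucocytes for the names most like bta-miR-181c, and from 0.58 to 0.85 and 0.61 to 0.76 for those most like bta-miR-181d.

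Names of the miRNAs annotated near the chromosome 7 pair were compared between sample types in the same fit, without a test of neighbours against pair. Among 5 names of miR-23a, miR-24 and miR-27a, all had a log2 difference below 0 on FD and 3 were called lower in leucocytes by edgeR, as were 160 of all 797 names (20.1%). These were bta-miR-24-3p at -2.56 (edgeR adjusted p = 0.0057), bta-miR-27a-3p at -1.42 (0.0028) and bta-miR-23a at -1.20 (0.043), where bta-miR-181c was at 2.30. On HG 2 of the 5 were called lower, bta-miR-24-3p (-2.21) and bta-miR-27a-3p (-1.66), as were 17.8% of all names, while bta-miR-24 was at -0.04 and bta-miR-23a at -0.80. Mature miR-24 also has a precursor elsewhere in the genome. The name bta-miR-24 had the same plasma diet values as hsa-miR-24-1-5p (log2 fold change -0.07), whereas the annotated neighbour is MIR24-2. It may therefore belong to that other precursor and not to a neighbour of the pair. By diet in leucocytes 1 of the 5, bta-miR-27a-3p, was called, at -0.64 with an edgeR adjusted p of 0.036, where 11 of all 779 names (1.41%) were called lower. The others were not called, with bta-miR-24-3p at -0.42, bta-miR-27a-5p at -0.36, bta-miR-23a at -0.15 and bta-miR-24 at 0.02. Nor was bta-miR-181c called, at -0.58.

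Of 17 names in a list of other lymphocyte-enriched miRNAs, 2 were called lower on HG in leucocytes by edgeR and none higher, where 11 of all 779 names (1.41%) were called lower. These were bta-miR-146a (-0.84, adjusted p = 0.011), a brake on inflammatory signalling, and bta-miR-142-3p (-0.61, adjusted p = 0.035), a pan-haematopoietic miRNA, and the list's median of -0.06 stood beside -0.02 over all names. No name of the list was called by diet in plasma, where its median was 0.00 beside 0.26 over all names. Between sample types 11 of the 17 were called higher and 1 lower in leucocytes on FD, and 10 higher and none lower on HG. The list's medians were 1.46 and 1.54, beside 1.40 and 0.52 over all names. The median over all names depended on the names admitted. In the fit of the 257 names with at least 10 reads in every library it was -0.06 on FD and -0.05 on HG, and the list was not compared within that fit. Over all 797 names 186 (23.3%) were called higher on FD and 165 (20.7%) on HG. On HG no miR-181 member was among the called names.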

How the data were processed

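Demultiplexing (bcl2fastq 2.20, per the submitters' processing notes), trimming, removal of reads under 15 nucleotides, mapping with 2 mismatches allowed to miRBase 22 and the UMD3.1 genome, and counting in sRNAbench were done by the authors. The authors deposited, for each library, read counts per miRNA name and expected counts (estimated counts in which a multiply mapped read is divided). They also deposited 2 RPM columns, recorded as score, which served only to derive the assigned and total reads of each library. The study's lists of read counts, labelled rpm there, were used only to check cow numbers. The plasma titles do not number HG libraries by cow, so these follow the study's column names. In this check 504 of 504 plasma and 198 of 198 leucocyte values equalled the undivided read counts.

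Members and gene lists were chosen with earlier results of these data known. Divided counts, rounded, were tested on every name reaching 10 reads over the libraries fitted, using edgeR 4.0.16 (quasi-likelihood, TMM, robust; cow plus diet within a sample type, group means across types) and Benjamini-Hochberg adjustment, in R 4.3.3. DESeq2 1.42.0 was an alternative. Scripts were tested on simulated data. Same-numbered leucocyte libraries deviated together (r 0.48 to 0.69), plasma ones unevenly (-0.52 to 0.44), but both come from the same animals. Libraries of different cows gave r of -0.64 to 0.36 in leucocytes and -0.65 to 0.75 in plasma. In plasma, libraries of the same cow thus did not stand out from those of different cows. Limits for 0 reads use 3 counts. The genes named were the 4 members, the marker and lymphocyte lists, names of annotated neighbours within 30000 bases and the 3 most correlated bovine names of each member. Correlations used log2 of CPM plus 1 less the mean of each sample type, and the names compared had at least 10 divided reads in every library. DESeq2's default independent filtering, the read minimum taken before rounding, and leaving out 2 plasma libraries were alternatives chosen after seeing the data.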

Additional observations from a re-analysis of the deposited data

Results flagged for a closer look

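One value stood apart from its group. In HG plasma bta-miR-181d was at 30.4 CPM of divided reads in cow 4, against 2.99 in the next highest cow, a gap of 0.902 of the group's range, beyond the 95% critical value of Dixon's test for 4 samples. The level came from 157 reads of 3 distinct sequences. Of 14 plasma groups of 4 examined in this way, 1 was beyond the limit, and chance gives about 1 in 20. The cause was not tested.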

How the results depend on the processing

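Values here are log2 differences. Of 348 alternative values for the members, 275 kept their direction and side of the threshold. A further 24 came to pass it, 2 no longer passed it and 47 changed sign. Among the 348, 30 ratio values by diet and 12 by sample type were judged on direction only, because their permutation tests could not reach the threshold. Some alternatives also rest on the same libraries as another setting. The cause of a change was not tested except where fewer libraries were used.

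For diet in leucocytes, bta-miR-181b was at -0.0061 with library size only, -0.041 with no filter, -0.030 with at least 10 reads in every library and -0.019 with undivided bovine names. Without a cow in turn, bta-miR-181a ranged from -0.25 to 0.22, bta-miR-181b from -0.028 to 0.089, bta-miR-181c from -0.72 to -0.45 and bta-miR-181d from -0.64 to -0.054. Names called ranged from 0 (without cow 3, or without the block for cow) to 111 (without cow 4), with 28 by DESeq2 under its default filtering and 36 at a filter matched to the threshold.

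For diet in plasma, undivided reads gave bta-miR-181a 0.020 and bta-miR-181b 0.071, library size only 0.32 and 0.42, at least 10 reads in every library 0.20 and 0.29, and leaving out HG plasma of cow 4 0.25 and 0.078. With no filter bta-miR-181b was at 0.076, and without the pairing by cow at 0.11. Without a cow in turn, bta-miR-181a ranged from -0.55 to 0.13 and bta-miR-181b from -0.69 to 0.43. DESeq2 put bta-miR-181d at -0.15 under either filtering, with 12 names called at the matched and 10 at the default one, and without HG plasma of cow 4 bta-miR-181d had too few reads to be tested.

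For leucocytes against plasma, bta-miR-181a passed the threshold on FD and HG with DESeq2 (1.09 and 1.16, either filtering), DESeq2 size factors (1.09 and 1.16), at least 10 reads in every library (1.41 and 1.26), cows 1, 3 and 4 only (1.49 and 1.28, the same as without cow 2), without cow 1 (1.53 and 1.88), without HG plasma of cow 4 (1.54 and 1.21) and without FD plasma of cow 1 (1.48 and 1.34). On HG bta-miR-181c passed it with DESeq2 (1.36, either filtering), without HG plasma of cow 4 (1.78) and without FD plasma of cow 1 (1.63). Without HG plasma of cow 4, bta-miR-181d passed it on FD (2.86) and turned to 2.78 on HG; with the replicate block it was at 0.060 on HG. Library size only gave bta-miR-181b -0.28 and bta-miR-181c 1.71 on FD, and bta-miR-181a -0.29, bta-miR-181b -0.80 and bta-miR-181c -0.13 on HG. Without a cow in turn, FD values ranged from 0.58 to 1.53 for bta-miR-181a and 2.16 to 3.25 for bta-miR-181c, and HG values from 0.33 to 1.88 for bta-miR-181a, -0.10 to 1.34 for bta-miR-181b and -1.24 to 2.36 for bta-miR-181d. Names called in edgeR ranged from 113 to 394 on FD and 162 to 351 on HG.

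For the interaction, bta-miR-181a was at -0.45 with library size only, -0.14 with at least 10 reads in every library, -0.21 with cows 1, 3 and 4 only, -0.33 without HG plasma of cow 4 and -0.14 without FD plasma of cow 1. Undivided reads put bta-miR-181b at 0.057 and DESeq2 at 0.0060 under either filtering. Without a cow in turn, the ranges were -0.25 to 0.36 for bta-miR-181a, -0.59 to 0.40 for bta-miR-181b and -3.87 to 1.04 for bta-miR-181d. The diet difference in the ratio of bta-miR-181b to bta-miR-181a ranged from -0.15 to 0.43 in plasma and -0.13 to 0.27 in leucocytes. For bta-miR-181c to bta-miR-181a it ranged from 0.19 (without cow 4) to 1.42 (without cow 1) in plasma and from -0.71 (without cow 4) to -0.21 (without cow 3) in leucocytes, and the difference between sample types from 0.54 (without cow 1) to 1.53 (without cow 3). With the block for cow, bta-miR-181c in leucocytes against plasma on FD was at 2.47 (edgeR adjusted p = 0.024), and adding or removing the block changed no other call on a member. In plasma, reads of bta-miR-181c and bta-miR-181d limit the precision.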

Other observations

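The bovine and human names of miR-181a had the same number of undivided reads in 8 of 8 plasma libraries. In leucocytes bta-miR-181a had 2.82% to 3.69% more reads than hsa-miR-181a-5p in 5 libraries and exactly as many, 45604, in HG leucocytes of cow 4. The cause was not tested.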
